A study of Mus musculus and Homo sapiens with 12 samples.

Results

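RAD18, KCNMA1, SUSD1 and LINC00545 are the 4 genes at the H3K18bu regions of ranks 4, 5, 6 and 2 in CCD841, a human cell line of normal colon epithelium. H3K18bu and H4K12bu are histone H3 butyrylated on lysine 18 and histone H4 butyrylated on lysine 12. A region was counted when the peak lists of both H3K18bu replicates overlapped there, and 108524 such consensus regions remained after removing those that matched the mitochondrial genome. The regions were ranked by the lower −log10 p of the replicates. The genes were chosen by this H3K18bu p from the top of the ranking, but ranks 1 and 3 were not taken, and no further criterion is stated here. The H3K18bu values of the 4 genes are therefore given as a description with no test. The 4 genes stand among 62700 annotated human genes, of which 36927 (58.9%) had an H3K18bu consensus region within 10 kb.

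Other places belong to the same range of ranks. The strongest region of all (rank 1, −log10 p of 230 and 139 in the replicates) lies over unnamed genes at chr21:8419590-8420937, where only 3.26% of the 31-base words occur once in the genome. Rank 3 lies in the collagen gene COL23A1 (117 and 103). Just inside the choice, SUSD1 had a lower −log10 p of 93.2. Just outside it, the region within 10 kb of DEAF1 and DRD4 (rank 7) had 92.8 and that in the growth factor receptor gene EGFR (rank 8) had 87.9.

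CCD841 cells had been treated with 1 mM sodium butyrate for 12 to 16 h by the labels, and CUT&Tag was run with antibodies against H3K18bu (2 libraries) and H4K12bu (2 libraries). All 4 libraries carry this treatment. An untreated or an acetyl-mark CCD841 library was not analysed here, so no value below is a change caused by butyrate. The mouse libraries come from the large intestine of male CETP-ApoB-100 transgenic mice whose age is not given in the sources used here. The 4 acetyl libraries (H3K18ac and H4K12ac, 2 each) are labelled high fat, high sucrose diet, and the 4 butyryl libraries (H3K18bu and H4K12bu, 2 each) are labelled that diet with 5% arabinoxylan, a dietary fiber, so acyl group and diet cannot be told apart. The paper's methods instead describe the group without arabinoxylan as kept on a low fat control diet, so the fat content of the diets may differ too. Nothing says that the 2 CCD841 libraries of a mark came from separate cultures, and the spread between them may be technical.

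The label of the cells was read at start sites of marker genes. An H3K18bu consensus region lay within 1 kb of a start site in 5 of 10 colon epithelium markers (KRT8, VIL1, CDH1, EPCAM and LGALS4), in 5 of 11 fibroblast or mesenchyme markers and in 2 of 4 blood cell markers, beside 44% of all protein-coding genes. For H4K12bu the counts were 3 of 10, 3 of 11 and 1 of 4, beside 35.4%. These shares do not set the epithelial list apart, and the label rests on the submitters. In the mouse tissue a peak of both replicates lay at an end of 8 of 10 epithelial marker genes for H3K18bu, 6 for H4K12bu, 7 for H3K18ac and 5 for H4K12ac, beside 7.75%, 14%, 27.1% and 28% of all mouse genes. In the same order the counts were 0, 0, 2 and 2 of 11 fibroblast markers and 0, 1, 2 and 1 of 4 blood cell markers.

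Butyrate is a short-chain fatty acid made by gut bacteria from dietary fiber, and its acyl group can be attached to histone lysines through butyryl-CoA. Acyl marks on these lysines are found at active promoters and enhancers. RAD18 is the E3 ubiquitin ligase that, with the conjugating enzymes UBE2A and UBE2B, marks the replication clamp PCNA at stalled forks so that damage can be tolerated. KCNMA1 is the pore-forming subunit of the BK channel, a calcium- and voltage-gated potassium channel that carries potassium secretion in the colon. SUSD1 encodes a sushi domain protein of little known function, and LINC00545 a long non-coding RNA.

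The sequences under the summits differ in kind, and those of RAD18, KCNMA1 and LINC00545 are shown first for this reason. Each line gives the 300 bases centred on the strongest H3K18bu summits, read from the plus strand of GRCh38. Capitals mark bases in 12-base words that occur more than once within the whole region.
RAD18, chr3:8851809-8852108: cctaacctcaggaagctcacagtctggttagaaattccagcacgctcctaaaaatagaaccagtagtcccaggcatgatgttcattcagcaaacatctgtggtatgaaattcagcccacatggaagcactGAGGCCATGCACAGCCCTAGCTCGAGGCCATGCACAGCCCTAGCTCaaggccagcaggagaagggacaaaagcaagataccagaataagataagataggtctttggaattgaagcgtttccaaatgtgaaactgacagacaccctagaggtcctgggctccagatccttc
KCNMA1, chr10:77519959-77520258: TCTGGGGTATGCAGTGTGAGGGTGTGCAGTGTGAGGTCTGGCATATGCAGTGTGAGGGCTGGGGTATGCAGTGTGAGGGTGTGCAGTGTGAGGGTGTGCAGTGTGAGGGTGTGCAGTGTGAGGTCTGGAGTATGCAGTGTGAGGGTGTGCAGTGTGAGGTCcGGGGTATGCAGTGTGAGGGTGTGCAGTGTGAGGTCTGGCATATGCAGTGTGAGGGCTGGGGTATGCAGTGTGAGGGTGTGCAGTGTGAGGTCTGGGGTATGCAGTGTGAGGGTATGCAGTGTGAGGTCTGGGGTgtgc
LINC00545, chr13:30870368-30870667: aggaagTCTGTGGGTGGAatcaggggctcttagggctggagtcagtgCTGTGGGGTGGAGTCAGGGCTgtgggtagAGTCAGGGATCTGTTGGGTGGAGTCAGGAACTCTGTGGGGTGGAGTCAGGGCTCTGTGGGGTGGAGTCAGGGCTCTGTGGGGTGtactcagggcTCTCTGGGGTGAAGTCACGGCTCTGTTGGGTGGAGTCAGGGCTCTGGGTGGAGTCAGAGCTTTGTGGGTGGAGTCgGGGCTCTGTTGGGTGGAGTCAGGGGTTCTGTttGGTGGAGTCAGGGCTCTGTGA
None of these 3 windows overlaps an exon. Of 300 bases, 295 are in capitals at KCNMA1, 244 at LINC00545 and 46 at RAD18.

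KCNMA1 and LINC00545 carry tandem repeats at the summit. In the KCNMA1 region the word CAGTGTGAGG occurs 24 times, 15 to 38 bp apart with a median of 21.0 bp. The stretch of recurring words extends over 527 bp, chr10:77519835-77520361, of a region of 664 bp. In the LINC00545 region the word GTGGAGTCAG occurs 16 times, 18 to 63 bp apart with a median of 22.0 bp, and the array of 463 bp, chr13:30870332-30870794, takes up the middle of a region of 887 bp. RAD18 holds a single duplication, in which its commonest 10-base word, ACAGCCCTAG, occurs 2 times 23 bp apart. SUSD1 holds no recurring 12-base word, and its commonest 10-base word occurs 2 times, 397 bp apart.

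Measured over whole regions, 58.2% of 12-base words recurred within the KCNMA1 region, 30.5% within LINC00545, 2.1% within RAD18 and 0% within SUSD1. At least 20% of words recurred in 1373 of all 108524 consensus regions (1.27%), in 17 of the 100 strongest (17.0%) and in 5 of the 10 strongest. With 16-base words the share was 52.2% at KCNMA1 and 19.6% at LINC00545, the latter under that threshold. With 12-base words those 5 are ranks 1, 2, 3, 5 and 7, which include KCNMA1 and LINC00545 and leave out RAD18 and SUSD1. The part of these repeats in the height of the regions was not tested.

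**Figure D1:**
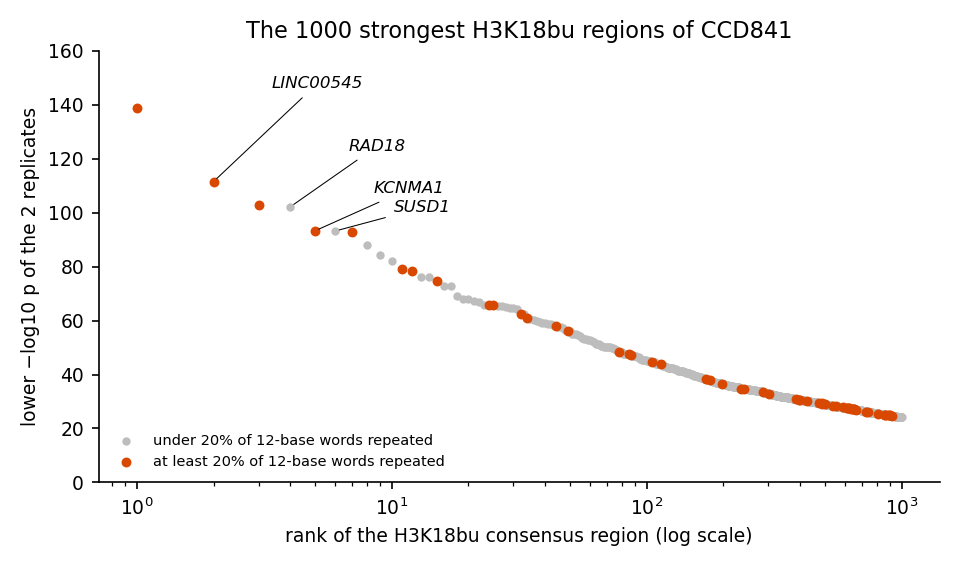
Lower −log10 p of the H3K18bu replicates (vertical axis) against rank on a log scale (horizontal axis) for the 1000 strongest consensus regions of CCD841, 1 point a region. Orange points have at least 20% of their 12-base words repeated within the region (56 of 1000), and KCNMA1 and LINC00545 are orange while RAD18 and SUSD1 are grey.

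The regions also differ in how much of their sequence is unique in the genome. All 31-base words of the RAD18 and SUSD1 regions occur once in GRCh38. At LINC00545 99.3% do, with at most 2 copies of the others. At KCNMA1 73% do, with up to 5 copies. Among the 100 strongest regions 55 were wholly unique at this length and 27 were under 90%, so KCNMA1 is among those 27. The study's methods give sequencing depth in uniquely mapped reads, and how reads of equal match were treated in the peak lists is not given in the sources used here.

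**Figure D2:**
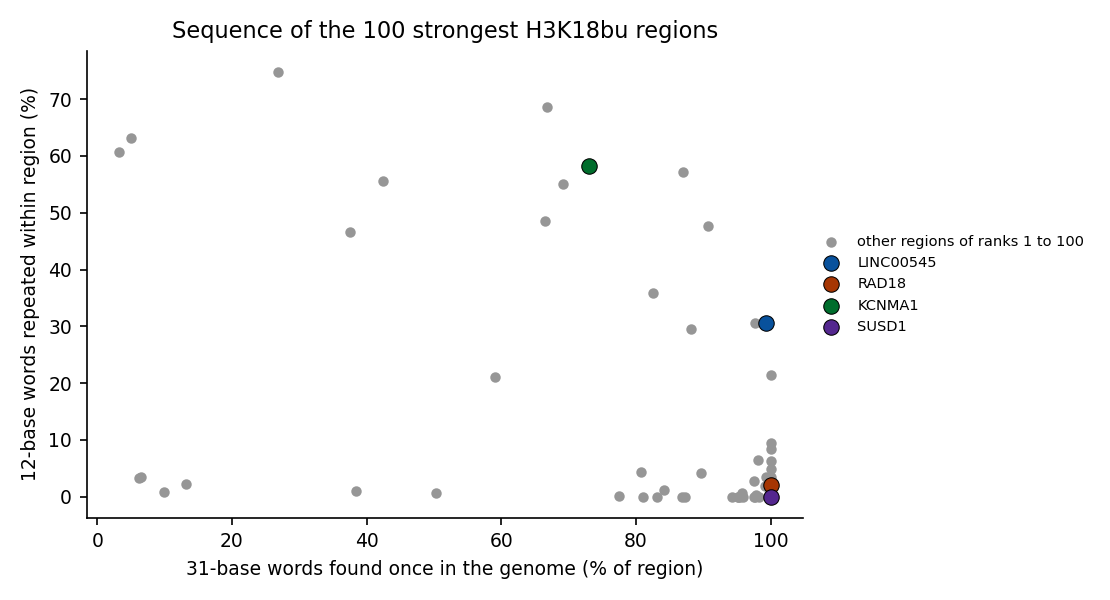
Share of 31-base words found once in GRCh38 (horizontal axis, %) against the share of 12-base words repeated within the region (vertical axis, %) for the 100 strongest H3K18bu regions, 1 point a region. RAD18 and SUSD1 sit at the lower right, LINC00545 at 99.3% and 30.5%, and KCNMA1 at 73% and 58.2%.

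The same 3 windows were also searched on both strands for the letters of common factor sites. TGANTCA, the AP-1 site, was in 0 of the 3 windows, beside 15.3% of all consensus windows and 47 of the 100 strongest. TGTGGT (RUNX) was found once, in RAD18 with an offset of -50 bp from the summit in genome coordinates. It was in 23.2% of all windows and 28 of the 100 strongest. CATTCC (TEAD, 19.8% of windows and 38 of the 100 strongest), TGTTTAC (FOX, 4.03% and 2) and TGACGTCA (CRE, 0.323% and 1) were in none of the 3. The window of SUSD1 is outside these counts, so they do not describe all 4 genes. The GC content of the windows was 48.7% at RAD18, 58.3% at KCNMA1 and 60.7% at LINC00545, against a median of 51.3% for all windows.

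Values at each gene are given as the −log10 p of the list, the fold of the summit over its local background, and the pileup, which is the number of extended read ends over the summit solved from those 2 columns. Over all consensus regions the median pileup was 17 in H3K18bu replicate 1 and 13 in replicate 2, and over the 100 strongest it was 79 in both. The 4 regions lay between 125 and 149. Their lower folds lay between 10.4 and 14.3, against a median lower fold of 4.14 over all regions and 11.9 over the 100 strongest.

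RAD18 (ENSG00000070950.10, chr3:8775402-8963773, minus strand) had its strongest region at chr3:8851439-8852593, 1155 bp wide. H3K18bu reached a −log10 p of 102 in replicate 1 and 118 in replicate 2, with folds of 14.3 and 16.2 and pileups of 125 and 136. Both replicates were above the median of the 100 strongest regions, and replicate 2 was the higher. The region lies beyond the 3′ end of the reference (MANE) transcript of RAD18, 24481 bp from its nearest exon. Only 1 of 10 annotated RAD18 transcripts spans it, and there it is intronic. The nearest annotated start site is 50.4 kb away, and CAV3, a muscle caveolin gene, lies within 10 kb.

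Within the RAD18 region the lists of all 4 libraries place the same main summits. The higher was at position 8851957 in H3K18bu replicate 1 and at 8851960 in replicate 2, and at 8851958 and 8851955 in H4K12bu. The lower was at 8851795, 8851797, 8851795 and 8851796, so the pair are 159 to 163 bp apart. The pileups at the lower summit were 102 and 94 for H3K18bu.

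KCNMA1 (ENSG00000156113.25, chr10:76869601-77638369, minus strand) had its strongest region at chr10:77519830-77520493, 664 bp wide, in intron 1 of its MANE transcript, an intron of 233 kb. H3K18bu reached −log10 p values of 93.3 and 96.2, folds of 12.1 and 12.9 and pileups of 126 and 125. The replicates were equal to within 1 read end. The summit lies 118 kb from the start of that transcript and 21.1 kb from the nearest annotated start site. Its summits fall inside the repeat array: H3K18bu replicate 1 listed 77520055 and 77520159 with pileups of 126 and 120, and replicate 2 listed 77520055 and 77520163 with 124 and 125. The replicates share these 2 summits and differ in which is the higher, so that the strongest ones are 108 bp apart. Each also listed a lower summit that the other did not, at 77520266 in replicate 1 (pileup 83) and at 77519952 in replicate 2 (66).

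SUSD1 (ENSG00000106868.17, chr9:112040783-112175297, minus strand) had its strongest region at chr9:112041164-112042274, 1111 bp wide, over the 3′ end of the gene. It overlaps 2 of the 17 exons of the MANE transcript, and its summit lies in the intron between them, 134 kb from the start site. H3K18bu reached −log10 p values of 102 and 93.2, folds of 11.9 and 10.4 and pileups of 140 and 139. A second summit near position 112042014 had pileups of 103 and 113. The nearest start site, 2.57 kb away, belongs to LINC02977, a long non-coding RNA gene, so the region is nearer to that start than to the start of SUSD1.

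LINC00545 (ENSG00000236094.3, chr13:30863369-30883424, plus strand) had its strongest region at chr13:30870056-30870942, 887 bp wide, in intron 1 of its canonical transcript, the only one of 4 that spans it. H3K18bu reached −log10 p values of 112 and 122, folds of 13.0 and 14.7 and pileups of 146 and 149. The start site of that transcript lies 7.15 kb upstream of the summit. The replicates listed 5 summits each, and the 3 highest were at 30870513, 30870663 and 30870797 in replicate 1 (pileups 146, 123 and 119) and at 30870523, 30870656 and 30870793 in replicate 2 (149, 126 and 95). The first 2 of these lie inside the repeat array, and the last at its end.

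The edges of the regions were close between replicates, except the end of RAD18. The starts of the strongest listed peaks differed by 5 bp at RAD18, 0 at KCNMA1, 1 at SUSD1 and 0 at LINC00545, and the ends by 380, 8, 0 and 13 bp. Over all consensus regions both medians were 42 bp. Start and end were both within 10 bp at 2 of 4 (KCNMA1 and SUSD1), beside 9.58% of all consensus regions. Summits within 10 bp of each other were found at RAD18, SUSD1 and LINC00545, that is at 3 of 4, against 40.3% of all consensus regions and 80.0% of the 100 strongest. At RAD18 replicate 2 listed a further low summit at 8852324, with a pileup of 25, beyond the end of the replicate 1 peak.

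H4K12bu was measured with another antibody in libraries that did not choose the genes. A peak of H4K12bu was listed in both replicates at 4 of 4 regions, beside 34.9% of all H3K18bu consensus regions and 99 of the 100 strongest, a share like that of the strongest regions. At RAD18 H4K12bu reached −log10 p values of 83.9 and 28 with pileups of 102 and 38. At KCNMA1 it reached 128 and 32.5 with pileups of 162 and 46. At SUSD1 it reached 45.8 and 12.6 with pileups of 69 and 20, and at LINC00545 41.4 and 14.2 with pileups of 55 and 19.

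By pileup the 2 marks ordered the genes differently. LINC00545 was the highest for H3K18bu in both replicates. For H4K12bu KCNMA1 was the highest and LINC00545 the lowest in both, though LINC00545 and SUSD1 had 19 and 20 in replicate 2. By fold RAD18 was the highest and SUSD1 the lowest in both replicates of both marks. Among 90476 H4K12bu consensus regions KCNMA1 ranked 26, RAD18 36, LINC00545 413 and SUSD1 742. These H4K12bu ranks include regions that match the mitochondrial genome, which the H3K18bu ranks leave out. The pileup of H4K12bu replicate 1 over that of H3K18bu replicate 1 was 1.29 at KCNMA1, 0.816 at RAD18, 0.493 at SUSD1 and 0.377 at LINC00545. Between the replicates numbered 2 it was 0.368, 0.279, 0.144 and 0.128, the same order at a lower level. H4K12bu replicate 2 was the shallower library, with a median pileup of 7 against 15 in replicate 1, and the part of depth in these ratios was not tested. With 2 libraries a mark an exact test cannot reach the threshold and none was run.

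**Figure D3:**
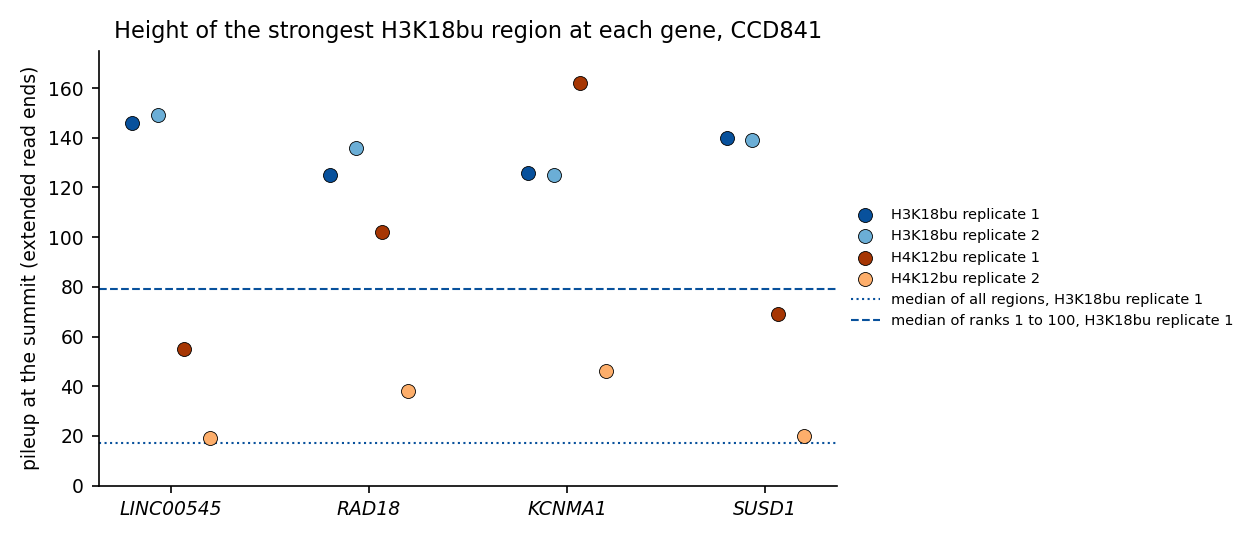
Pileup at the summit of the strongest H3K18bu region (vertical axis, extended read ends) for each gene and each of the 4 CCD841 libraries, 1 point a library. The H3K18bu points lie between 125 and 149, above the dashed median of 79 for the 100 strongest regions, and the H4K12bu points run from 19 at LINC00545 to 162 at KCNMA1.

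No control library enters the lists, so the background of a summit is the local average of the same library and contains the region's own reads. It was 7.83 and 7.48 at RAD18 in the H3K18bu replicates, 9.53 and 8.79 at KCNMA1, 10.8 and 12.4 at SUSD1 and 10.3 and 9.18 at LINC00545. Divided by the lowest background in the library these were 5.57 and 6.67 at RAD18, 6.78 and 7.85 at KCNMA1, 7.71 and 11.1 at SUSD1, and 7.37 and 8.19 at LINC00545. The medians were 1.91 and 1.87 over all consensus regions and 4.06 and 4.62 over the 100 strongest. The background was highest at SUSD1, where the fold was lowest. The fold is the summit over this background and the pileups of the 4 genes were alike. A low fold therefore follows from a high background, and nothing further is read from it.

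The neighbourhood was lower than the regions themselves. For H3K18bu this follows from choosing regions at the top of the ranking, and nothing is read from it. Within 10 kb on each side the highest other H3K18bu pileups were 30 and 23 at RAD18, 40 and 38 at KCNMA1, 37 and 36 at SUSD1 and 39 and 32 at LINC00545. The median H3K18bu background of other peaks within 100 kb was 3.74 and 3.66 at RAD18, 5.75 and 4.73 at KCNMA1, 4.30 and 3.86 at SUSD1 and 3.71 and 2.79 at LINC00545, against library medians of 2.64 and 1.99. Other H3K18bu regions within 100 kb on each side numbered 54 and 60 at KCNMA1, 49 and 48 at SUSD1, 43 and 36 at LINC00545 and 39 and 33 at RAD18. The part of the surrounding background in these values was not tested.

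**Figure D4:**
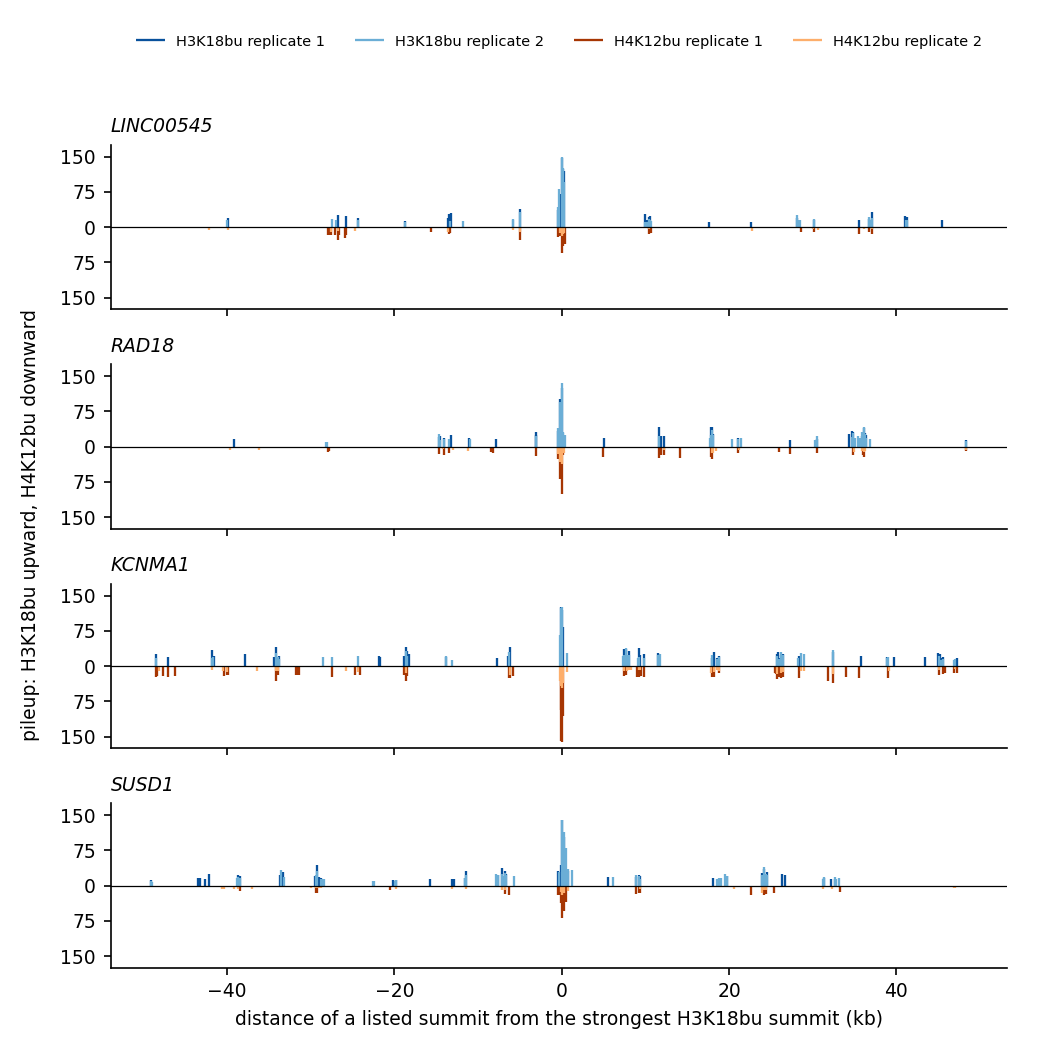
Pileup of every listed summit within 50 kb of the strongest H3K18bu summit (horizontal axis, distance in kb) at each gene, with H3K18bu upward and H4K12bu downward and 1 line a summit. At all 4 genes the centre reaches 125 to 149 for H3K18bu, and the highest neighbour within 10 kb reaches 40.

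The gene windows held many lower regions beside the strongest one, which the following counts include. The KCNMA1 window (gene plus or minus 10 kb, 789 kb) held 167 and 172 H3K18bu regions in the replicates and 94 consensus regions. The RAD18 window (208 kb) held 40 and 32 with 25 consensus, SUSD1 (155 kb) held 29 in each with 15 consensus, and LINC00545 (40.1 kb) held 7 in each with 5. Without the strongest region this leaves 11.5 consensus regions per 100 kb at RAD18, 11.8 at KCNMA1, 9.06 at SUSD1 and 9.99 at LINC00545. The median was 3.77 over all protein-coding genes and 3.93 over long non-coding RNA genes, genes with no region included, and since the 4 genes were chosen on this mark nothing is read from the difference. H4K12bu consensus regions numbered 14, 81, 9 and 4, or 6.72, 10.3, 5.82 and 9.99 per 100 kb, against medians of 4.56 and 1.70. At q below 0.01 the H4K12bu counts were 6 at RAD18, 39 at KCNMA1 and 5 at SUSD1.

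The second strongest region of each gene was far weaker except at KCNMA1. There it lay at chr10:77592773-77593510 in the same intron (rank 157) with H3K18bu −log10 p of 51.3 and 39.5 and H4K12bu of 37.4 and 18.1. At RAD18 the second was at rank 1278 (22.4 and 23), at LINC00545 at rank 4612 (19.0 and 15.6) and at SUSD1 at rank 5200 (15 and 18). The KCNMA1 window was the widest and held the most consensus regions (94), so its second region was drawn from more.

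Start sites were low beside the strongest regions. Within 1 kb of the start of the MANE transcript of RAD18 the H3K18bu replicates listed pileups of 12 and 14, and at that of SUSD1 21 and 14. At that of KCNMA1 only replicate 2 listed a peak (pileup 12), and at the canonical start of LINC00545 neither did. Counting any annotated start site, 7 of 10 RAD18 transcripts, 8 of 96 KCNMA1 transcripts, 4 of 10 SUSD1 transcripts and 1 of 4 LINC00545 transcripts had an H3K18bu consensus region within 1 kb. For H4K12bu the counts were 0, 6, 1 and 1. By gene, H3K18bu lay at a start site in 4 of 4 and H4K12bu in 3 of 4, all but RAD18, beside 24.4% and 18.8% of all genes and 44% and 35.4% of protein-coding genes. KCNMA1, with 96 transcripts, has many start sites to count. The 4 genes were chosen on H3K18bu, so nothing is read from its count beside these shares.

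Among partners of RAD18 in damage tolerance an H3K18bu consensus region lay within 10 kb of 16 of 19 listed genes and an H4K12bu one at 19 of 19, beside 75.8% and 76.5% of protein-coding genes. At start sites the counts were 11 and 9 of 19, beside 44% and 35.4%. By the highest −log10 p in each H3K18bu replicate within 10 kb, the 3 with the highest lower value were POLK, a translesion polymerase (19.9 and 28.1), PCNA, the clamp that RAD18 ubiquitinates (16.0 and 17.9), and SHPRH, a ligase that extends that ubiquitin (16.9 and 13.5). The 3 without an H3K18bu consensus region, named after their values were seen, were the conjugating enzyme gene UBE2B, SLF2 and the single-strand binding subunit gene RPA1.

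Of the 13 BK channel partners and related channels 10 had an H3K18bu and 11 an H4K12bu consensus region within 10 kb, beside 75.8% and 76.5% of protein-coding genes, and 5 and 1 had one at a start site, beside 44% and 35.4%. KCNMB2, a beta subunit, had H3K18bu −log10 p values of 27.8 and 26.3 and 39 consensus regions in a window of 591 kb. KCNT2, a sodium-activated potassium channel, had 23.6 and 24.5, and KCNN2, a small-conductance calcium-activated channel, 24.7 and 21.2. The 3 without an H3K18bu consensus region, again named after their values were seen, were KCNMB1, the beta subunit of smooth muscle, and the gamma subunit genes LRRC26 and LRRC52.

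Among 12 other genes of sushi domain proteins 11 had an H3K18bu and 12 an H4K12bu consensus region within 10 kb, and 4 and 5 had one at a start site, beside the same shares of protein-coding genes (75.8% and 76.5%, 44% and 35.4%). The highest were SUSD6 (33 and 24.9), SUSD5 (26.2 and 22.6) and the complement regulator CD55 (22.2 and 24.9). The nearest protein-coding genes of LINC00545 were MEDAG at 22.8 kb, TEX26 at 49.2 kb and ALOX5AP at 98.9 kb. Of the 4 genes listed as its chromosome neighbours, which lie 317 to 1069 kb away, all had both marks within 10 kb and 2 had H3K18bu at a start site, beside the same shares: FRY (18.1 and 14.1) and EEF1DP3 (18.1 and 13.4), ahead of RXFP2 (15.3 and 12.8).

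By the highest −log10 p in gene plus or minus 10 kb over the 4 CCD841 libraries, as log2(1 + value), the protein-coding genes nearest to RAD18 were COL23A1 (distance 0.681) and PDCD6-AHRR (0.865). Those nearest to KCNMA1 were PDCD6-AHRR and AHRR (0.929 each, the same region), those nearest to SUSD1 were EEPD1 (0.376) and EGFR (0.462), and those nearest to LINC00545 were EGFR (0.663) and EEPD1 (0.802). The distance includes the H3K18bu values that chose the 4 genes. Genes near by it are therefore high in that ranking too, and nothing further is read from the likeness.

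Mouse genes of the same names exist for RAD18, KCNMA1 and SUSD1. The butyryl lists held 50675 to 96432 peaks, of which 89.2% to 91.4% had a pileup of 1, a single read end. The acetyl lists held 299623 to 299861 peaks, at the limit of 300000 set for the caller, and 12.8% to 72.1% of them had a pileup of 1, so counts per listed peak set lists that met the limit against lists that did not. At Rad18 (chr6:112619851-112696691, GRCm38) the H3K18bu libraries listed 2 and 3 peaks within 10 kb of the gene and the H4K12bu libraries 2 and 6, with a highest pileup of 2. The H3K18ac libraries listed 18 and 6 and the H4K12ac libraries 8 and 15, with highest pileups of 8, 6, 3 and 6. No H3K18bu peaks of the replicates overlapped at Rad18, and those of the other marks overlapped in 1 H4K12bu, 4 H3K18ac and 3 H4K12ac stretches. The H4K12bu stretch, chr6:112620003-112620347 with pileups of 2 and 1, overlapped an H3K18ac stretch with 3 and 6 at one end of the gene.

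At Kcnma1 (chr14:23292288-24005110) the butyryl libraries listed 20, 18, 12 and 26 peaks and the acetyl libraries 118, 276, 23 and 75. The highest pileup was 3 in the butyryl and 6 in the acetyl libraries. A stretch shared by the H3K18bu replicates, chr14:23792190-23792489 with pileups of 1 and 3, lay within an H3K18ac stretch with pileups of 6 and 4. The only H4K12bu stretch, chr14:23989554-23989834 with pileups of 1 and 2, overlapped no acetyl stretch, of which there were 18 for H3K18ac and 2 for H4K12ac. At Susd1 (chr4:59314202-59439869) the butyryl libraries listed 10, 11, 4 and 8 peaks and the acetyl libraries 28, 23, 14 and 35, and the highest pileups were 4 and 10. Its 2 H3K18bu stretches had pileups of 1 and 1 and of 1 and 4, and the latter lay within an H3K18ac stretch with pileups of 3 and 8. Susd1 had 1 H4K12bu, 7 H3K18ac and 4 H4K12ac stretches. Of all mouse genes 14.4% had an H3K18bu, 21.9% an H4K12bu, 46.4% an H3K18ac and 46.7% an H4K12ac stretch of both replicates within 10 kb.

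Per 100000 listed peaks no difference between butyryl and acetyl libraries passed the test. Rad18 had 4.84 ± 1.45 (SD, n = 4) in butyryl and 3.92 ± 1.89 (n = 4) in acetyl libraries, a difference of 0.920 with an adjusted p of 0.686 in the two-sided exact permutation test. Kcnma1 had 29.7 ± 5.45 and 41.0 ± 36.4 (n = 4 each), a difference of -11.3 with an adjusted p of 0.714 in the same exact test. Susd1 had 13.6 ± 6.71 and 8.34 ± 2.95 (n = 4 each), a difference of 5.24 with an adjusted p of 0.686 in the same exact test. The smallest p that 70 assignments allow in the exact permutation test is 0.0286. Adjusted over 3 genes this is 0.0857 for 1 gene alone, so 1 gene of 3 could not pass 0.05 by itself. Within H3K18 alone both butyryl libraries were higher than both acetyl libraries at Susd1 (16.4 and 21.7 against 9.34 and 7.67), lower at Kcnma1 (32.9 and 35.5 against 39.4 and 92.0) and overlapping at Rad18 (3.29 and 5.92 against 6 and 2). Within H4K12 the butyryl libraries lay inside the range of the acetyl ones at Susd1 (7.85 and 8.30 against 4.67 and 11.7), and overlapped them at Kcnma1 (23.6 and 27 against 7.67 and 25) and at Rad18 (3.93 and 6.22 against 2.67 and 5.01). An exact permutation test of 2 against 2 libraries cannot reach the threshold, and none was run. The sources do not say whether the H3K18 and H4K12 libraries came from the same mice, and where they did, 4 libraries are fewer than 4 animals and the p-values are too small. The Kcnma1 difference rests on H3K18ac replicate 2 (92.0), and without it the sign turned, to 5.71. The signs also turned at Rad18 by peak length (-0.250) and at Susd1 when single-read peaks were left out (-0.490). Leaving those out gave a Rad18 difference of 11.4, which rests on 1 peak in each butyryl library against 7, 6, 8 and 15 in the acetyl ones. With peaks at q below 0.05 the differences were -7.98 at Rad18, where all 4 butyryl libraries had 0 such peaks, and 9.84 at Kcnma1, where 1 butyryl library had 1 and the others 0. At Susd1 the difference was 13.1, where again 1 butyryl library had 1 such peak and the others 0.

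**Figure D5:**
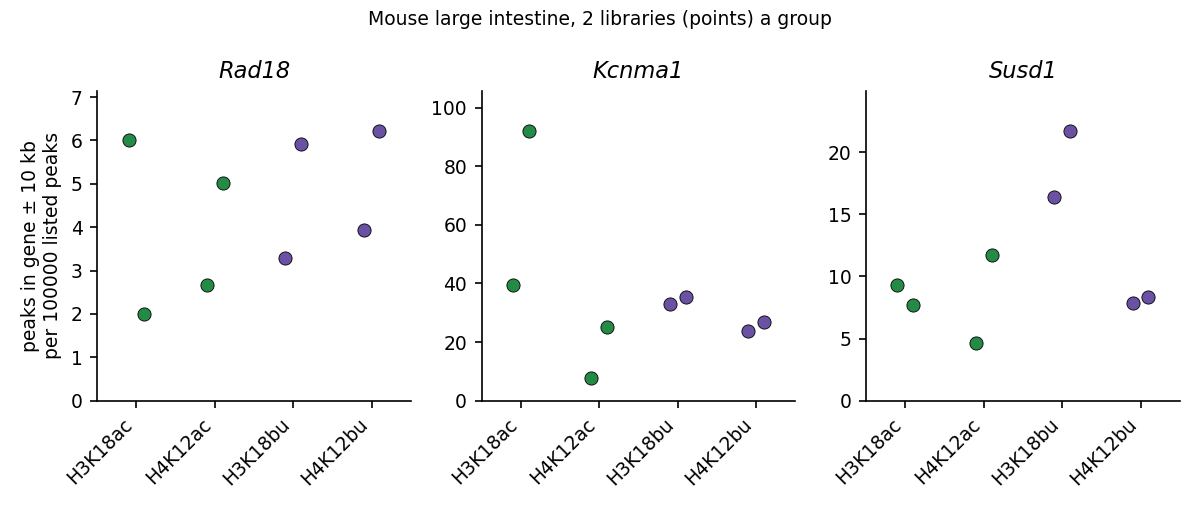
Listed peaks within 10 kb of Rad18, Kcnma1 and Susd1 per 100000 listed peaks (vertical axis, each panel with its own scale from 0) in 8 mouse large intestine libraries, 2 points a group, acetyl in green and butyryl in purple. The 4 butyryl points overlap the 4 acetyl points at all 3 genes, and Kcnma1 in H3K18ac replicate 2 stands at 92.0.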

How the data were processed

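CUT&Tag peak lists of 12 libraries (4 CCD841, 8 mouse) were analysed, and the 4 genes and all gene lists were chosen with earlier results of these data known. Per the labels the authors' processing used bcl2fastq 2.17.1, cutadapt 1.9.1, Bowtie2 2.3.1 and MACS2 2.1.0 with builds hg38 and mm10, and each library was called on its own. The deposited columns used were the fold (a ratio of summit to local background), the −log10 p-value and the −log10 q-value. The CCD841 lists hold 299296 to 299720 peaks, near the limit of 300000 that was set for the caller, at a p threshold of 0.01 and with no control library. Pileup and background were solved from the fold and the p, for 99.9997% or more of the peaks in each list, and this was tested on simulated data. Depth was read from these, since the lists give no read totals. Lowest backgrounds were 1.40 and 1.12 in H3K18bu, 1.55 and 0.788 in H4K12bu and 0.0146 to 0.147 in mouse.

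Consensus regions were merged stretches with a peak of both replicates (at least 1 bp). Regions with 50% or more matched to the mitochondrial genome by BLAST 2.17.0 (E 1e-10) were removed (12 of 108536). Genes were taken from GENCODE 44 and, for mouse, RefSeq GRCm38.p6. Named genes were the members, genes within 10 kb of their strongest region, the top 3 of each list, regions next in rank, and the 2 genes of most like pattern. Mouse p-values come from exact permutation, adjusted by Benjamini-Hochberg over 3 genes. The sources do not say whether replicates numbered alike share an animal or culture. Alternatives are given in the closing section. The sequence at 1 of the 4 regions is not reported here.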

Additional observations from a re-analysis of the deposited data

How the results depend on the processing

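By the lower fold in place of the lower p the ranks were 21 for RAD18, 107 for KCNMA1, 314 for SUSD1 and 52 for LINC00545. By the lower pileup SUSD1 moved to rank 4, with RAD18 and KCNMA1 both at 6 and LINC00545 at 2. In H3K18bu replicate 1 alone the ranks were 6 for RAD18, 15 for KCNMA1, 7 for SUSD1 and 4 for LINC00545, and in replicate 2 alone 3 for RAD18, 5 for KCNMA1, 6 for SUSD1 and 2 for LINC00545. All 4 regions had an H4K12bu peak in both replicates at q below 0.05 (27.8% of all H3K18bu consensus regions), at q below 0.01 (17.9%) and with a larger overlap required. At q below 0.01 the H4K12bu consensus regions fell to 6 at RAD18, 39 at KCNMA1 and 5 at SUSD1, while the H3K18bu counts did not move by over 1.5 times.

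Counted at start sites in place of gene windows, H4K12bu was at 9 of 19 damage tolerance and 1 of 13 BK channel genes. It was at 5 of 12 sushi domain and 0 of 4 LINC00545 neighbour genes, beside 35.4% of protein-coding genes. In the same order H3K18bu was at 11 of 19, 5 of 13, 4 of 12 and 2 of 4, beside 44%. Chosen after seeing the data, a threshold of 10% repeated words gave 2569 regions, 30% gave 859 and 16-base words at 20% gave 931 of all, with 17, 14 and 13 of the 100 strongest. With 16-base words LINC00545 had 19.6%, under the threshold of 20%.

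In mouse, a pileup of at least 2 turned Susd1 to -0.490, and gave Rad18 a difference of 11.4, from 1 peak in each butyryl library, with an adjusted p of 0.0857 in the exact permutation test, where the raw p of 0.0286 is the smallest that 70 assignments allow and 1 gene of 3 cannot pass 0.05 alone. Peaks at q below 0.05 gave Rad18 -7.98, Kcnma1 9.84 and Susd1 13.1, from 0, 1 and 1 butyryl peaks in all. Per 100000 bases of peak length Rad18 was -0.250. With a library left out the differences ran from 0.280 to 1.61 for Rad18, -22.4 to 5.71 for Kcnma1 and 2.52 to 7.14 for Susd1. With the replicate block the adjusted exact p was 0.722 for all 3 differences (0.920, -11.3 and 5.24) over 36 assignments. The smallest two-sided p that 36 assignments allow lies above 0.05, so no difference could pass under the block and nothing is read from it. The cause of these shifts was not tested. The CCD841 values were given with no test, paired or unpaired.

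The mouse lists are limited by peaks of a single read end. These are most of the peaks in the butyryl lists, in H3K18ac (72.1% and 52.0%) and in H4K12ac replicate 1 (52.8%), and 12.8% in H4K12ac replicate 2. The part of depth in this was not tested. The CCD841 lists were called with no control library, untreated cells were not analysed here, and the number of repeat copies in the CCD841 genome was not measured.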
